A study of Mus musculus with 8 samples.

Results

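The receptor genes for steroid hormones were followed in gonadotropes, the luteinizing hormone- and follicle-stimulating hormone-producing cells of the anterior pituitary, isolated from male and female mice. The 6 genes were *Esr1* and *Esr2*, which encode the estrogen receptors alpha and beta, *Gper1*, which encodes the G protein-coupled estrogen receptor, *Pgr*, which encodes the progesterone receptor, *Nr3c1*, which encodes the glucocorticoid receptor, and *Nr3c2*, which encodes the mineralocorticoid receptor. They were chosen by symbol, and each of the 6 was found as 1 entry among the 55523 entries of the count table. EGFP-expressing cells had been sorted from the pituitaries of Ad4BP-BAC-EGFP mice, in which a bacterial artificial chromosome of the *Nr5a1* locus drives EGFP, and RNA was sequenced from 4 female and 4 male samples. Both sexes carried this transgene, and no other treatment is named. The labels give neither the age of the mice, nor the stage of the estrous cycle, nor whether a sample came from 1 animal or from several, so the p-values measure the spread between these samples. The study left male replicate 1 out of its comparisons, and it is given apart here, so that 3 males stand against 4 females.

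Steroid hormones of the gonad and the adrenal cortex act back on the gonadotrope. Except for *Gper1*, whose product is a membrane receptor that signals through G proteins, the genes encode ligand-activated transcription factors that are held by chaperones of the HSP90 system, bind hormone, and recruit coactivators or corepressors at their target genes. In gonadotropes, estrogen receptor alpha is known for the feedback of estradiol on luteinizing hormone. *Pgr* is a classical estrogen-induced gene, and its product is known to take part in the surge of luteinizing hormone that leads to ovulation. Glucocorticoids also act on gonadotropes, and are known to change the expression of the gonadotropin subunit genes.

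The total count was between 18774578 and 31302588 per sample. Levels are given as CPM, counts relative to library size, here after correction with TMM factors (trimmed mean of M values). A floor of 3 counts corresponded to between 0.0921 and 0.146 CPM. It covers counting error only, because amplified reads do not each stand for a molecule of RNA. Levels of *Xist* (at least 215 CPM in the females and at most 3.67 CPM in the males) matched the labelled sexes of all samples. Gonadotrope markers were high in all samples. The summed level of *Lhb*, *Fshb*, *Cga*, *Gnrhr* and *Nr5a1* ranged from 21488 to 34863 CPM in the females and from 67930 to 75717 CPM in male replicates 2 to 4. In male replicate 1 it was 28423 CPM, with *Nr5a1* at 16.3 CPM, where the other males had 584 to 801 CPM. Nuclear *Malat1* took 11.1% of the counts of that sample and between 0.706% and 1.59% in the other 7. Transcripts of other pituitary cells were also present. The sum of the somatotrope markers *Gh* and *Ghrhr* was between 12397 and 57867 CPM in the females and between 65338 and 142305 CPM in male replicates 2 to 4. The hormone gene *Prl*, made by lactotropes, was between 4671 and 18125 CPM in the females and between 6227 and 15681 CPM in these males. The markers of corticotropes and melanotropes, *Pomc* above all, summed to 12455 to 22086 CPM in the females and 10175 to 28651 CPM in these males. The thyrotrope markers *Tshb* and *Trhr* summed to 21.4 to 85.2 CPM in the females and 238 to 345 CPM in these males. The part of these cells in the receptor levels was not tested. In such sorted bulk samples, fewer cells of a type and less RNA per cell cannot be told apart.

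*Esr1* and *Nr3c1* were the most abundant of the 6 transcripts in both sexes, *Esr2* was not detectable in 7 of the 8 samples, and *Pgr* was the receptor gene that differed between the sexes. Counts of different genes were compared after division by the length of their annotated exons. By the mean over the 7 samples compared, *Esr1* came first at 41.7 CPM per kb, followed by *Nr3c1* at 27.2, *Gper1* at 8.93, *Pgr* at 7.26 and *Nr3c2* at 3.62 CPM per kb. In the females, *Esr1* was 38.2 ± 6.76 CPM per kb (SD, n = 4), and its lowest sample, at 30.3, lay just above the highest sample of *Nr3c1*, at 29.1. In male replicates 2 to 4, *Esr1* was 46.4 ± 9.10 CPM per kb (SD, n = 3), and its lowest sample, at 35.9, was above the highest of *Nr3c1*, at 32.6. The order of the next genes varied between samples. *Pgr* (10.3 ± 3.50 CPM per kb, SD, n = 4) and *Gper1* (8.29 ± 2.07) overlapped in the females. In the males *Gper1* (9.79 ± 3.45 CPM per kb, SD, n = 3) was above *Pgr* (3.23 ± 0.553) in each sample, whereas *Pgr* and *Nr3c2* (3.94 ± 0.993) overlapped. As a share of the sum of the 6 transcripts per kb, *Pgr* made up 8.46% to 18.5% in the females, 2.98% to 3.80% in male replicates 2 to 4 and 5.46% in male replicate 1. The exons counted for each entry are not given in the sources used here, so that these lengths are approximate, and *Esr1* was 89.9 CPM per kb when the longest transcript was taken in place of all exons. With that length *Pgr*, at 9.00 CPM per kb, came before *Gper1*, at 8.93, so that the order of these 2 genes by their mean over both sexes is not settled.

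**Figure D1:**
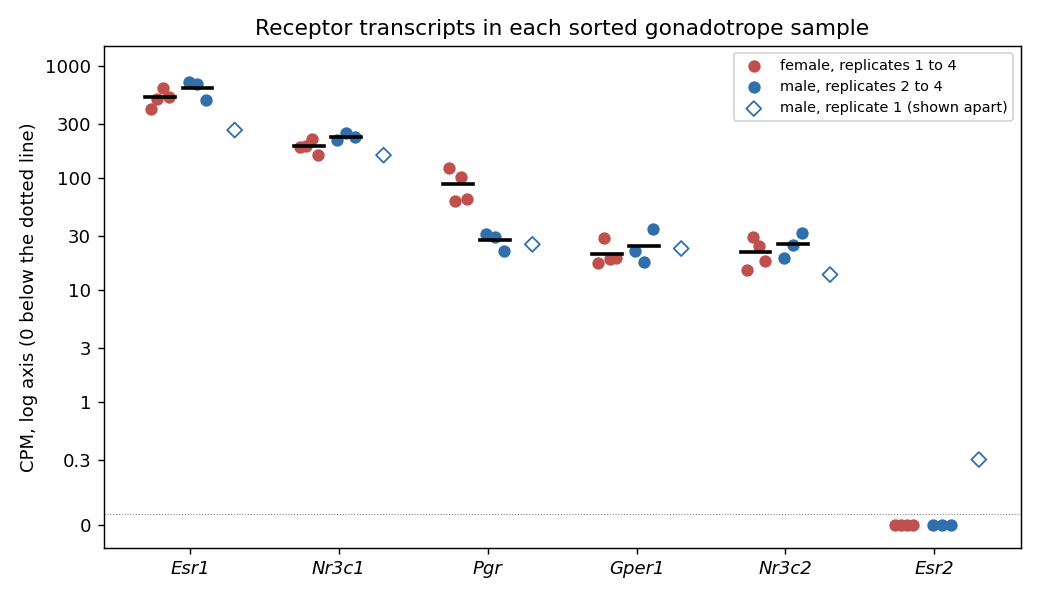
Level of each receptor transcript in CPM (log axis, with 0 drawn below a dotted line) in each of the 8 samples, as points for females, males 2 to 4 and, as an open diamond, male replicate 1; the black bars are the means of the females and of males 2 to 4. *Pgr* in the 4 females (61.8 to 123 CPM) lies above all 4 males, and *Esr2* is at 0 in 7 samples.

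To compare the sexes, edgeR's quasi-likelihood test was run on the 20152 genes with enough counts, and p-values were adjusted over all of them by Benjamini and Hochberg's method. Of the 6 receptor genes, 5 passed the filter, and 1 of these, *Pgr*, was past the threshold of 0.05. Among all genes tested, 2.34% were past it in either direction with 1.35% higher in females and 0.983% higher in males. With DESeq2, 9.93% of the genes were past it, *Pgr* again being the receptor gene among them. The edgeR calls were 273 genes higher in females and 198 higher in males, a split that became 675 and 133 when libraries were scaled by their size alone. Over all genes tested, that scaling moved the median difference on the log2 scale from −0.03 to −0.24.

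*Pgr* was lower in the males. It was 123 CPM in female replicate 1, 61.8 CPM in replicate 2, 102 CPM in replicate 3 and 64.4 CPM in replicate 4. In male replicates 2, 3 and 4 it was 31.2, 29.4 and 22.3 CPM. The lowest female was 1.98 times the highest of these males, and female replicates 1 and 3 lay well above replicates 2 and 4, so that the females spread more widely (87.9 ± 29.9 CPM, SD, n = 4) than the males (27.6 ± 4.73 CPM, SD, n = 3). Male replicate 1, at 25.5 CPM, lay inside the range of the other males. On the log2 scale males differed from females by −1.70 (standard error 0.29), which corresponds to a level 3.25-fold lower in males (95% interval 2.01 to 5.24), and edgeR's quasi-likelihood test gave an adjusted p of 0.0417. The groups did not overlap (two-sided exact permutation test over 35 splits, p = 0.0286, the smallest p possible), as was the case with females above for 10.8% of all genes tested. The fold change stayed between −1.92 and −1.47 over 16 alternatives, whose adjusted p from edgeR or DESeq2 ranged from 3.08e-05 to 0.227. The call was lost when any 1 of the 7 samples was left out, with an adjusted p from edgeR between 0.0605 and 0.136.

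*Pgr* (ENSMUSG00000031870.16) lies on chromosome 9 (mm10, GRCm38) between 8899833 and 8968611 on the plus strand, with no other gene of the GENCODE M21 annotation overlapping it. *Esr1* (ENSMUSG00000019768.16) lies on the plus strand of chromosome 10, from 4611593 to 5005614, likewise with no overlapping gene. The RefSeq promoter windows of both genes (GRCm38.p6) are shown because these are the receptor that differed between the sexes and the most abundant one. Each runs from 250 bases before to 50 bases after an annotated start, on the plus strand, at chr9:8899583-8899882 for *Pgr* and at chr10:4611739-4612038 for *Esr1*, for which a further start has a window of its own. Capitals mark matches to 5 motifs searched on both strands, which were GGTCA (the core of the estrogen response element), the full palindromic element (this core and, after a spacer of 3 bases, its reverse complement), AAGGTCA (the NR5A1 site, which contains the first motif), TGTTCT (the core bound by the receptors for glucocorticoids and progesterone) and GGGCGG (the Sp1 site).
Pgr: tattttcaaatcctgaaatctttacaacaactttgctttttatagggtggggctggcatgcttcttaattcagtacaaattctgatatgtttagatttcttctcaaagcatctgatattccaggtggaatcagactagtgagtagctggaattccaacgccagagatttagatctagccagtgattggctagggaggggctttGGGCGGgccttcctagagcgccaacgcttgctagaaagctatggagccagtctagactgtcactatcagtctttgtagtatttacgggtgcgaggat
Esr1: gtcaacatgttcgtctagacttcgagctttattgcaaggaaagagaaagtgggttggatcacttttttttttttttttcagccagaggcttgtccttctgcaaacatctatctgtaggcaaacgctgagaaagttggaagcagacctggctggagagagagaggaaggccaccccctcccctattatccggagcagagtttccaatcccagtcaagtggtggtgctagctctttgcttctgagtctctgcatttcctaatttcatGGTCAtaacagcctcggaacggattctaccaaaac
The window of *Pgr* held 1 match to GGGCGG, and the window of *Esr1* shown here held 1 match to GGTCA. The further window of *Esr1*, not shown, held 0 matches to each of the 5 motifs. In all 32851 promoter windows of this length, GGGCGG was present in 35.7%, GGTCA in 40.5%, TGTTCT in 19.0%, AAGGTCA in 4.72% and the full element in 0.0700%. A match describes these letters only.

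Among the estrogen receptors, *Esr1* was high in both sexes and *Esr2* was at the limit of detection. *Esr1* was 414, 506, 638 and 530 CPM in female replicates 1 to 4, and 718, 691 and 490 CPM in male replicates 2 to 4. Its mean level in these samples was above that of 99.6% of the genes with a count. The sexes overlapped, since male replicate 4 lay below 3 of the 4 females. The male-to-female difference was 0.25 on the log2 scale (standard error 0.19), for which edgeR gave an adjusted p of 0.550, and the 95% interval of the male-to-female ratio was 0.868 to 1.62. Male replicate 1 had 266 CPM, below every other sample.

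*Esr2* (ENSMUSG00000021055.14, chromosome 12, minus strand, 76120419 to 76177259) had 0 counts in all 4 females and in male replicates 2 to 4, which allows a level of up to between 0.0921 and 0.146 CPM per sample. It had 7 counts in male replicate 1, or 0.306 CPM (exact 95% Poisson interval 0.123 to 0.630, for counting error only). A count confined to 1 library was common in this table. In male replicate 1, 681 entries had counts that all other samples lacked, 229 of them with at least 7 counts, and in the other samples between 374 and 611 entries were of this kind. *Esr2* did not pass the filter and was not tested between the sexes.

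*Gper1* (ENSMUSG00000053647.4, chromosome 5, plus strand, 139423151 to 139427800) was low to moderate. It was 17.2, 28.8, 18.8 and 19.4 CPM in female replicates 1 to 4, and 22.1, 17.7 and 34.6 CPM in male replicates 2 to 4, with 1 higher sample in each sex. The sexes overlapped, with a male-to-female ratio of 1.16 (95% interval 0.710 to 1.88) and an adjusted p of 0.772 from edgeR. Its sign turned with library size alone, by about the shift that this scaling gave all genes. Its sign also turned when male replicate 4 was left out (log2 fold change −0.12). Male replicate 1, at 23.4 CPM, lay inside the range of the other males. The gene lies within the span of *3110082I17Rik* on the other strand but shares 0 bases of its exons with it.

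Among the corticosteroid receptors, *Nr3c1* was the steadier and the more abundant. *Nr3c1* (ENSMUSG00000024431.15, chromosome 18, minus strand, 39410545 to 39519421) was 187, 194, 224 and 161 CPM in female replicates 1 to 4, and 218, 250 and 231 CPM in male replicates 2 to 4. Its coefficient of variation was 13.5% in the females and 7.09% in the males, where the medians over all genes tested were 27.9% and 23.6%. One female, replicate 3, reached into the range of the males and the other 3 lay below it. The log2 fold change was 0.26 (standard error 0.14), edgeR's quasi-likelihood test gave an adjusted p of 0.378, and the male-to-female ratio had a 95% interval of 0.949 to 1.50. Male replicate 1, at 159 CPM, was below all other samples.

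*Nr3c2* (ENSMUSG00000031618.13, chromosome 8, plus strand, 76899442 to 77245012) was 15.0, 29.9, 24.5 and 18.2 CPM in female replicates 1 to 4, and 19.3, 25.2 and 32.1 CPM in male replicates 2 to 4. The sexes overlapped, with a male-to-female ratio of 1.14 (95% interval 0.704 to 1.85) and an adjusted p of 0.792 from edgeR. Its sign too turned with library size alone, within the shift common to all genes, and when male replicate 4 was left out (log2 fold change −0.018). Of its exons, 3.82% are shared with the antisense gene *Gm10649*, which had between 3 and 32 counts per sample, and the counting is not stated to use strand. In male replicate 1, *Nr3c2* was 13.7 CPM. Of the 5 genes tested, *Esr1*, *Nr3c1* and *Nr3c2* were lower in male replicate 1 than in each other male, as were 34.6% of all genes tested.

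**Figure D2:**
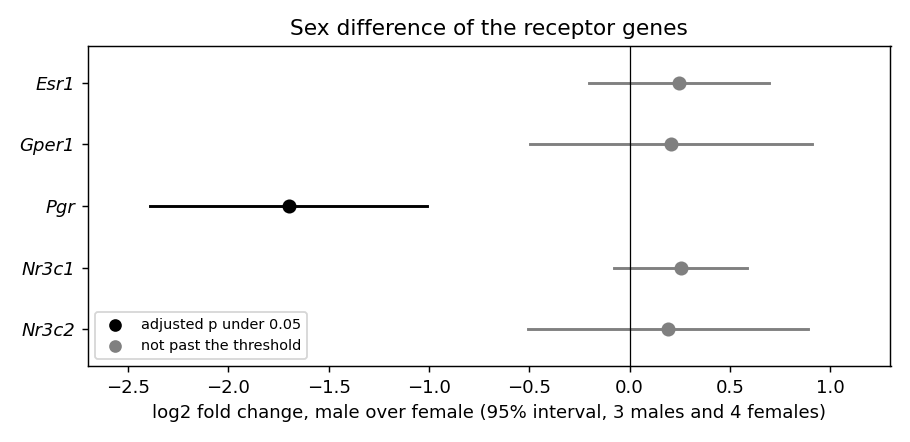
Log2 fold change of males (replicates 2 to 4) over females (replicates 1 to 4) for the 5 receptor genes tested, with bars for the 95% interval. *Pgr*, in black, is past the threshold at −1.70, and the intervals of the other 4 genes include 0.

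Ratios between receptors that are both detected in a sample do not depend on how the libraries are scaled. The ratio of *Pgr* to *Esr1*, in counts per kb of exon, was 0.476, 0.195, 0.255 and 0.194 in female replicates 1 to 4, and 0.0696, 0.0680 and 0.0727 in male replicates 2 to 4. It was lower in each of these males than in each female, and the 3 males lay close together. The difference of the mean log2 ratio, male minus female, was −1.90 (two-sided exact permutation test, p = 0.0286). After adjustment over 4 ratios, that of *Esr1* to *Esr2* included, the p of this exact permutation test was 0.114. The unadjusted p is the smallest that 35 splits can give. In male replicate 1, with its low *Esr1*, the ratio was 0.153, between the other males and the females.

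The transcript of *Nr3c1* was between 5.46 and 10.5 times that of *Nr3c2* per kb in the females and between 6.07 and 9.49 times in male replicates 2 to 4. *Esr1* was between 1.24 and 1.85 times *Nr3c1* in the females and between 1.19 and 1.86 times in these males. The order turned in male replicate 1, with *Esr1* at 0.943 times *Nr3c1*, though not with the longest transcripts, where it was 1.70 times. With the longest transcript as the length of each gene, *Esr1* was between 2.25 and 3.34 times *Nr3c1* in the females and between 2.15 and 3.35 times in these males, and the ratio of *Pgr* to *Esr1* was 0.112 to 0.274 and 0.0391 to 0.0418. The choice of length leaves the difference between the sexes as it was. Neither the ratio of *Nr3c1* to *Nr3c2* nor that of *Esr1* to *Nr3c1* differed between the sexes beyond its spread, with log2 differences of 0.05 and −0.02 (two-sided exact permutation tests, p = 0.771 and 0.943). Against a floor of 3 counts for *Esr2* in each library, *Esr1* was at least 795-fold higher per kb in the females and at least 888-fold higher in male replicates 2 to 4, and at least 1710-fold and 1910-fold with the longest transcripts. Because *Esr2* was at 0 in these 7 samples, this ratio follows the count of *Esr1* and the depth of the library, and its difference between the sexes says nothing of *Esr2*.

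**Figure D3:**
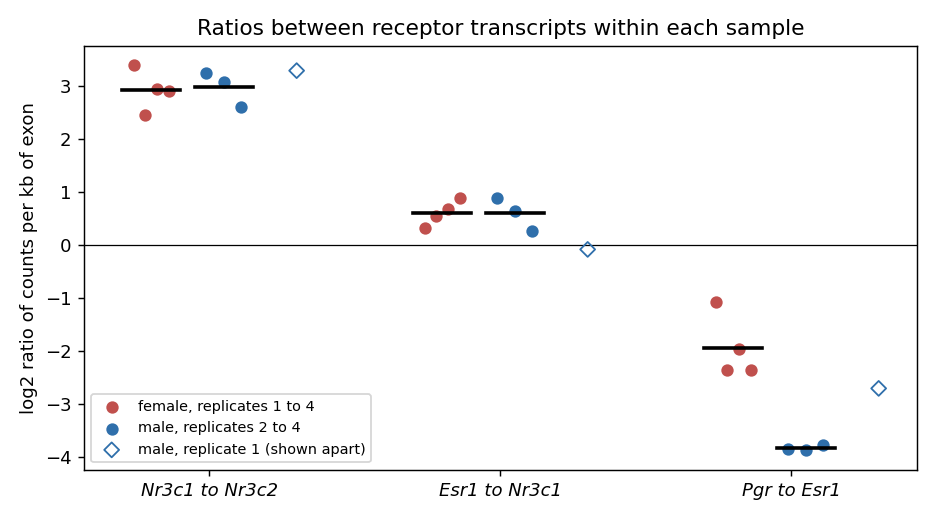
Log2 ratio of counts per kb of exon between pairs of receptor transcripts within each sample, as points for females, males 2 to 4 and, as an open diamond, male replicate 1; the black bars are means. *Pgr* to *Esr1* is the pair in which the males (−3.88 to −3.78) and the females (−2.36 to −1.07) do not overlap.

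Genes known to respond to estrogen were listed to set beside *Pgr*. Of the 20 genes on this list, *Pgr* and *Esr2* included, 16 were tested, and 2 were past the threshold, *Pgr* and *Greb1*, both lower in males, where 1.35% of all genes tested were. *Pgr* is on this list because it is a known target, and was itself one of the receptor genes chosen here. The median log2 fold change of the list was −0.13, against −0.03 for all genes tested. *Greb1* (chromosome 12, minus strand, 16670615 to 16800886), an estrogen-induced gene whose product acts as a cofactor of estrogen receptor alpha, was between 69.9 and 89.5 CPM in the females and between 13.0 and 19.8 CPM in male replicates 2 to 4. Its log2 fold change was −2.29 (standard error 0.21), and edgeR gave an adjusted p of 0.00875. Male replicate 1, at 48.6 CPM, was between the groups, and with all 8 samples the adjusted p of *Greb1* was 0.173. *Gal*, which encodes galanin and was singled out after its values were seen, was between 48.6 and 118 CPM in the females and between 10.3 and 34.7 CPM in male replicates 2 to 4 (log2 fold change −1.94), with an adjusted p of 0.0890 from edgeR. The 3 listed genes with the highest level, *Fos*, *Prl* and *Ctsd*, overlapped between the sexes. *Fos*, an immediate early gene, was between 6280 and 8022 CPM in all samples. The females also had the lower sums of gonadotrope, somatotrope and thyrotrope markers, at the values given above. The markers of gonadotropes did not all lie in one direction, since *Fshb* was between 1402 and 5699 CPM in the females and between 16894 and 30905 CPM in male replicates 2 to 4, whereas *Nr5a1*, whose locus drives the EGFP used for the sort, was between 862 and 1266 CPM in the females and between 584 and 801 CPM in these males. The part of this in *Pgr*, *Greb1* and the genes described next was not tested.

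Glucocorticoid response genes were set beside *Nr3c1*. Of 20 genes listed, 19 were tested, and 1, *Tsc22d3*, was past the threshold and higher in males, as were 0.983% of all genes tested. Males lay above females without overlap for 4 of the 19 (11.5% of all genes tested) and females above males for 2 (10.8%). The median log2 fold change was 0.24, where that of all genes was −0.03, and with library size alone these were 0.02 and −0.24. *Tsc22d3* (X chromosome, minus strand, 140539528 to 140600659) encodes the glucocorticoid-induced leucine zipper. It was 147, 166, 187 and 153 CPM in female replicates 1 to 4, and 378, 320 and 393 CPM in male replicates 2 to 4, so that the groups stood apart. The log2 fold change was 1.13, with an adjusted p of 0.0201 from edgeR, and the adjusted p reached 0.0713 when male replicate 2 was left out, 0.0561 without female replicate 2 and 0.0526 without male replicate 4. In male replicate 1 it was 2.14 CPM, from 49 counts, and with all 8 samples the adjusted p was 0.880. *Fkbp5*, a cochaperone that lowers the hormone affinity of the glucocorticoid receptor and is itself induced by glucocorticoids, was singled out after its values were seen. It was between 51.9 and 139 CPM in the females and between 227 and 256 CPM in male replicates 2 to 4, with a log2 fold change of 1.29 and an adjusted p of 0.0817 from edgeR. *Klf9* and *Nfkbia*, named after their values were seen, are the 2 genes with females above, with log2 fold changes of −0.91 and −0.52 and adjusted p-values of 0.616 and 0.142 from edgeR. *Dusp1* and *Mt1*, the other 2 of the 3 highest genes, overlapped between the sexes.

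A further list held 8 genes for membrane-bound or membrane-associated progestin receptors and their relatives. Of these, 1 was past the threshold and higher in males, against 2.34% of all genes tested in either direction. With library size alone the 1 gene past it was higher in females, where 808 of all 20152 genes were past it in either direction. With DESeq2 1 was higher in males and 2 in females, where 9.93% of all genes passed. *Pgrmc1* (X chromosome, plus strand, 36598206 to 36606079), which encodes a heme-binding membrane protein, was 370, 331, 413 and 299 CPM in female replicates 1 to 4 and 671, 675 and 524 CPM in male replicates 2 to 4. It was higher in each of these males than in each female, in the direction opposite to *Pgr*. Its log2 fold change was 0.79, with an adjusted p of 0.0499 from edgeR, which lay between 0.0641 and 0.159 when any 1 sample was left out, was 0.103 with library size alone and 0.622 with all 8 samples, and stayed under the threshold in 4 of 16 alternatives. In male replicate 1 it was 234 CPM, below all females. *Pgrmc2*, another member, was between 107 and 140 CPM in the females and between 74.0 and 92.1 CPM in male replicates 2 to 4, with a log2 fold change of −0.60 and an adjusted p of 0.0990 from edgeR. Of the 3 estrogen-related receptor genes, which encode orphan relatives of the estrogen receptors that do not bind estradiol, *Esrra* and *Esrrg* were at most 9.64 and 8.75 CPM in the 7 samples compared, and *Esrrb* was at most 0.829 CPM. None of the 2 tested was past the threshold with edgeR, with 0 at an unadjusted p under 0.05 and 0 with DESeq2.

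The proteins that hold the receptors and work with them showed no gene past the threshold with edgeR. Of 15 chaperone and cochaperone genes, 14 had a positive log2 fold change of males over females, with a median of 0.49, against 9652 of 20152 genes and a median of −0.03 over all genes tested. None passed with edgeR, 4 had an unadjusted p under 0.05, as had 19.9% of all genes tested, and 4 passed with DESeq2, where 9.93% of all genes did (*Hspa8*, *Stip1*, *Fkbp5* and *Ahsa1*, named after their values were seen). The median was 0.28 with library size alone, where that of all genes was −0.24. *Hsp90ab1*, the constitutive HSP90 that holds the receptors ready for hormone, was between 1199 and 1568 CPM in the females and between 1448 and 1892 CPM in male replicates 2 to 4. Of 20 coactivator genes and 12 corepressor genes, none passed with edgeR, with 7 and 1 at an unadjusted p under 0.05 and 3 and 1 past the threshold with DESeq2 (9.93% of all genes in that test), and the medians were −0.14 and −0.14. Among the coactivators, males lay above females without overlap for 4 genes (11.5% of all genes tested) and females above males for 4 (10.8%). For the corepressors these numbers were 0 and 1. *Ncoa7*, a coactivator named after its values were seen, had a log2 fold change of 2.79 and an adjusted p of 0.0531 from edgeR. *Ncor1*, a corepressor, was between 120 and 133 CPM in the 7 samples compared. *Tbl1x*, a subunit of the corepressor complex, stood at separate levels, since female replicate 1 had 4.79 CPM and male replicate 4 had 7.36 CPM, where the other 6 samples had from 133 to 176 CPM.

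Enzymes that make or remove the ligands of these receptors were measured as well. Of 22 genes listed, 20 were in the table and 13 passed the filter. None of these was past the threshold with edgeR, 7 had an unadjusted p under 0.05 (19.9% of all genes tested), and 3 listed genes passed with DESeq2 (9.93% of all genes in that test). The median log2 fold change was −0.35, and 10 of the 13 were negative. *Hsd11b1*, which regenerates active glucocorticoid inside the cell, was between 66.0 and 132 CPM in the females and between 75.7 and 106 CPM in male replicates 2 to 4. *Cyp19a1*, the aromatase that makes estradiol, was named after its values were seen and had 0 CPM in all 8 samples.

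**Figure D4:**
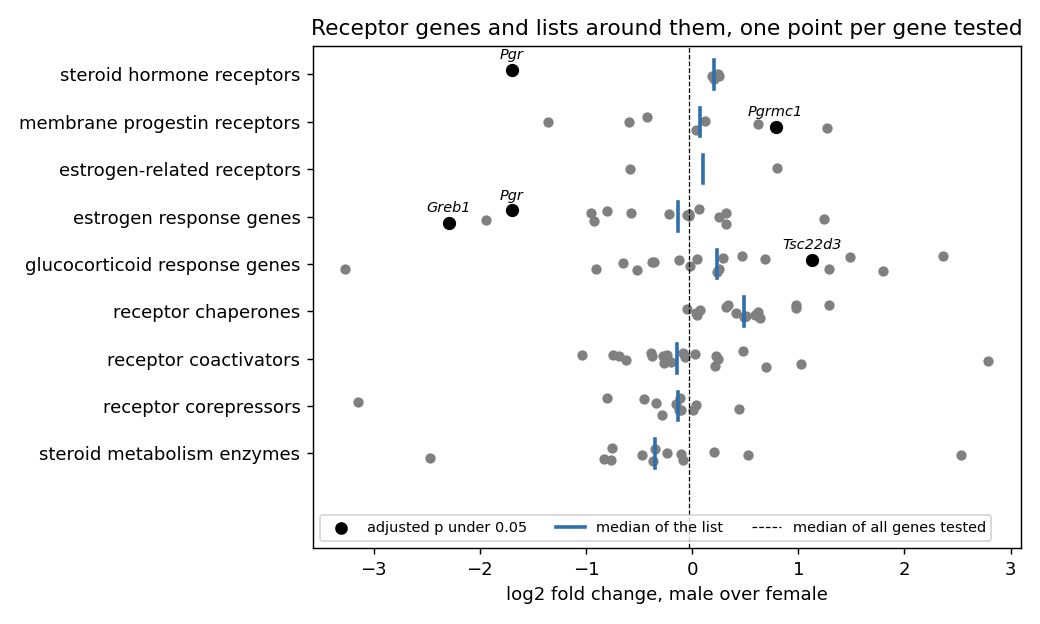
Log2 fold change of males over females for each gene tested in the receptor group and in 8 lists around it, with a blue bar at the median of each list and a dashed line at the median of all genes tested (−0.03). Black points with names are past the threshold, and *Pgr* stands in 2 rows because it is also an estrogen response gene.

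The genes whose pattern over the 7 samples was most like that of each receptor were found by the root mean square difference between standardized log2(CPM + 1) profiles, among genes with at least 10 CPM. *Pgr* was closest to *Lcorl* (difference 0.128) and *Sox2* (0.156), where the median over 9851 genes was 1.47. *Lcorl*, which encodes a transcription factor related to the corepressor LCOR, was 94.4, 59.9, 79.8 and 52.0 CPM in female replicates 1 to 4 and 30.6, 33.4 and 24.2 CPM in male replicates 2 to 4. As for *Pgr*, replicates 1 and 3 were the higher females. *Sox2*, a marker of pituitary stem cells, was between 49.5 and 77.8 CPM in the females and between 29.8 and 37.1 CPM in these males, while the sum of 3 stem cell markers was between 110 and 230 CPM and between 106 and 136 CPM. *Nr3c1* was closest to *Tmem56* (0.0999), *Mcc* (0.256) and *Dand5* (0.272), and *Esr1* to *Smarca1* (0.157), *Mea1* (0.186) and *Hmgxb4* (0.201). *Gper1* was closest to *Aldoa* (0.280), *Rcan2* (0.328) and *Cd151* (0.357), and *Nr3c2* to *Slc50a1* (0.297), *Slc25a38* (0.305) and *Txn1* (0.307). With library size alone, *Lcorl* was still among the 3 genes most like *Pgr*, and the nearest gene of each other receptor no longer was among its 3.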

How the data were processed

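RNA of EGFP-positive pituitary cells was sequenced from 4 female and 4 male samples. According to the methods and the submitters' processing notes, cutadapt trimmed the reads, STAR mapped them to mm10 and featureCounts counted them by gene, and the authors deposited the counts per gene without normalization in 1 table. The annotation is not given in the sources used here. The number of sample columns that could not be mapped was 0.

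Male replicates 2 to 4 were compared with the 4 females by edgeR's quasi-likelihood test (version 4.0.16, R 4.3.3) with TMM factors and filterByExpr. P-values were adjusted by Benjamini and Hochberg's method, with the threshold at 0.05. CPM used TMM factors over the 8 samples. Standard errors were computed from the F statistic, and 95% intervals from the t distribution of the same fit. Exact permutation tests used log2(CPM + 1) or the log2 ratio of (counts + 1) per kb of exon, with exon lengths from GENCODE M21, and scipy 1.17.1 in Python 3.11.15. The edgeR test was checked on simulated counts, and the exact permutation test against that of scipy on a fixed example. DESeq2 (version 1.42.0), other scalings and filters, all 8 samples, a replicate block, counts summed per locus and leaving out each sample were the alternatives.

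The 6 receptor genes and the gene lists were chosen with earlier results of these data known. Of each list, the text names the genes past the threshold and the 3 with the highest mean CPM, or some of them, and other genes are marked as chosen after their values were seen.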

Additional observations from a re-analysis of the deposited data

Results flagged for a closer look

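Of 90 groups of 4 samples examined, 12 held a sample far from the other 3, where chance gives about 4.5. Male replicate 1 was that sample in 8 of the 12, and it lay outside the range of the other males for 69.9% of all genes tested. In a group of 4, any sample is the highest or the lowest for part of the genes. The share for a typical sample was not computed. Some of the 12 share their values, as do *Prl* and the lactotrope sum. Among the receptor genes, *Esr2* was 0.306 CPM in male replicate 1, a sample outside the comparison of the sexes, and 0 CPM in the other males. The log2 ratio of *Esr1* to *Esr2*, at 7.55 against 11.4 to 12.1, restates these counts, since *Esr2* in the other males is only the added count. The log2 ratio of *Pgr* to *Esr1* was −2.71 in that sample against −3.88 to −3.78. In the same sample the sum of gonadotrope markers was 28423 CPM against 67930 to 75717 CPM, *Ncor1* was 151 CPM against 132 CPM in each of the other males, *Esrra* 15.5 CPM against 4.63 to 6.38 CPM, *Mt1* 1533 CPM against 576 to 671 CPM, and *Hsd17b10* 5.76 CPM against 34.8 to 36.4 CPM. In male replicate 4, *Tbl1x* was 7.36 CPM, far below the range of the other males (153 to 176 CPM). In female replicate 2, *Prl*, and with it the sum of lactotrope markers, was 18125 CPM against 4671 to 6937 CPM, and *Hsd17b12* was 80.9 CPM against 118 to 124 CPM.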

How the results depend on the processing

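The log2 fold change of *Pgr* was negative under all 16 alternatives. It was past the threshold under 7 of them, and the number of receptor genes past it was 0 without the filter on low counts (−1.69, adjusted p 0.0618 from edgeR), with a replicate block (−1.47, adjusted p 0.227) and in each fit without 1 sample (−1.81 to −1.48, with 0 receptor genes). The fits without the filter and with the block used the same 7 samples, whereas those without 1 sample used fewer. The cause was not tested. *Esr1* and *Nr3c1* kept a positive sign, and were not past the threshold, under all 16. Their log2 fold changes ranged from 0.043 to 0.395 and from 0.042 to 0.353, both lowest with library size alone. *Gper1* turned to −0.014 with library size alone and ranged from −0.12 to 0.43 with 1 sample left out, where male replicate 4 gave the negative value. *Nr3c2* turned to −0.023 with library size alone and ranged from −0.018 to 0.41, again negative without male replicate 4. Library size alone moved the median of all genes from −0.03 to −0.24, so that these turns with it are a shift common to all genes. The log2 difference of *Esr1* to *Esr2*, 0.28 with the 7 samples, was −0.80 with all 8. The first follows the counts of *Esr1* and library depth, since *Esr2* was at 0, and the second rests on the 7 counts of *Esr2* in male replicate 1. With 1 sample left out, that of *Nr3c1* to *Nr3c2* ranged from −0.10 to 0.24, that of *Esr1* to *Nr3c1* from −0.17 to 0.15, and that of *Pgr* to *Esr1* from −2.04 to −1.61.

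Over all genes, 471 were past the threshold, and 2253 with DESeq2, 808 with library size alone, 177 without the filter, 67 with all 8 samples, 0 with the replicate block and between 88 and 171 with 1 sample left out. Same-numbered samples did not deviate together over all genes (correlations of −0.0193, −0.0082 and −0.00081). Such correlations can miss a litter or batch effect on some genes, and the labels give the number alone. Whether the paired samples share more than that number was not tested. In pairs, the exact permutation p of the ratio of *Pgr* to *Esr1* was 0.25, the smallest that 3 pairs allow. With the longest transcript as length, *Esr1* was 89.9 and *Nr3c1* 32.5 CPM per kb, and with all 8 samples *Esr2* was 0.0113 CPM per kb. With DESeq2, 4 chaperone, 3 coactivator, 1 corepressor, 3 membrane progestin receptor, 4 glucocorticoid response, 4 estrogen response and 3 steroid metabolism genes passed. Of all genes in that test, 9.93% passed. With library size alone, 1 coactivator and 2 steroid metabolism genes passed, and with all 8 samples 0 membrane progestin receptor, 0 glucocorticoid response and 1 estrogen response gene. At this depth, *Esr2* below the floor of 3 counts would not be seen. *Greb1*, *Tsc22d3* and *Pgrmc1* were not past the threshold with the block or with all 8 samples. The alternatives for *Greb1*, *Tsc22d3*, *Pgrmc1*, *Fkbp5* and the most alike genes were chosen after seeing the data.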
